A study of Danio rerio with 16 samples.

Results

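Whole zebrafish embryos (Danio rerio) of wild-type (WT) genotype were compared between 8 and 11 hours post fertilization (hpf), using the 4 control libraries of these times, 2 at each, out of 16 libraries in the study. The control embryos had been injected at 0 hpf with a locked nucleic acid (LNA) of scrambled sequence. An LNA is a short antisense oligonucleotide with modified sugars, and the study's other embryos received an LNA against BHIKHARI, an endogenous retrovirus (Bik-1 LNA, the knockdown). Every group therefore carries an injection, and no uninjected embryos were analysed here. The members were taken from the labels alone: control 8 hpf replicates 1 and 2, and control 11 hpf replicates 1 and 2. The labels do not say whether replicates were separate clutches or injections, nor how many embryos were pooled, so a p-value here reflects no more than the variation among the libraries, possibly technical. Polyadenylated RNA was counted per gene and per family of transposable elements.

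In the zebrafish, the later course of gastrulation moves mesoderm and endoderm inside, narrows and lengthens the axis, and sets the dorsoventral and anteroposterior pattern of the germ layers. Gastrulation ends in a tailbud, and somites, blocks of mesoderm that form muscle and skeleton, then bud off from head to tail while the neural plate thickens and divides into brain regions. The stage is known for the loss of early pluripotency and Nodal genes and the onset of regional and tissue-specific genes.

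The 8 hpf libraries held 6460512 and 6314355 counts, and the 11 hpf libraries 6054660 and 6054665. All 16 libraries ranged from 4399855 to 7694887. Repeat families took 12.42% and 8.94% of the counts at 8 hpf and 7.58% and 7.76% at 11 hpf. The 3 families named ERV1-N3 held 5.87% of the scaled counts in replicate 1 of control 8 hpf, 2.67% in replicate 2, and 1.93% and 2.04% at 11 hpf. Replicates of a time differed by more than counting noise, their chi-square being 12 times its degrees of freedom at 8 hpf and 9.08 times at 11 hpf, and none was treated as a repeat deposit. Levels are given as CPM, counts scaled to a common library size by TMM, replicate 1 first, and changes as log2 fold changes of 11 against 8 hpf. The standard error (SE) given is approximate, the absolute log2 fold change divided by the square root of its F statistic. Where a time has almost no counts, both values depend on the prior count, and the SE is then no measure of precision. In bulk RNA, fewer cells of a type and less RNA per cell cannot be told apart.

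Between 8 and 11 hpf, 3248 of 16894 genes tested rose and 2036 fell at an adjusted p under 0.05 (edgeR quasi-likelihood F-test, Benjamini-Hochberg). That is 19.2% and 12.1% of the genes, or 31.3% together, and 7170 genes had an unadjusted p under 0.05. Among genes that passed the filter, rises were the larger changes. By more than 4-fold 1224 genes rose and 300 fell, and by more than 16-fold 427 rose and 38 fell. The filter used all 8 groups, most of them later than 8 hpf. It thus favoured genes with few counts at 8 hpf over genes with few counts later. The share of the filter in this difference was not tested. Below a mean of 1 CPM, 230 genes rose and 25 fell. The median log2 fold change over all genes was 0.08. Among genes with a mean of 1 to 10 CPM, 20.9% rose and 5.61% fell. Among those from 100 CPM to 10 times that level, 14.4% rose and 37.0% fell. The values of the 2 times did not overlap in 5283 of the 5284 called genes, against 64.7% of all genes tested.

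**Figure D1:**
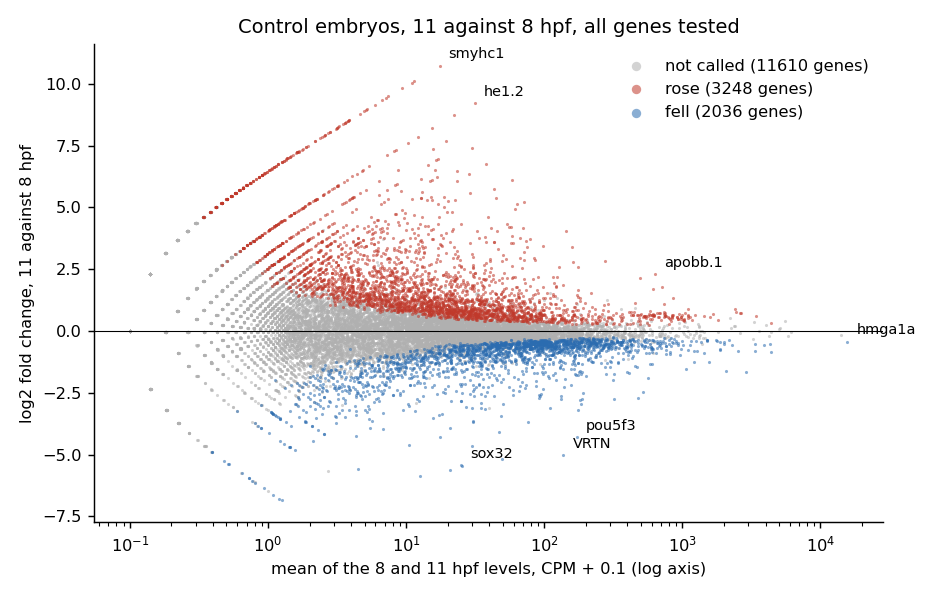
Log2 fold change of 11 against 8 hpf (vertical axis) against the mean level in CPM plus 0.1 (horizontal axis, log scale) for the 16894 genes tested in the control libraries. The 3248 genes that rose are red, the 2036 that fell blue and the others grey; the slanted rows at the left are genes with few or no counts at a time, whose fitted fold depends on the prior count.

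The total of calls depended on 1 replicate of each time more than on the other. It was 4385 without replicate 1 of control 8 hpf, 4639 without replicate 2 of control 11 hpf, 2716 without replicate 2 of control 8 hpf, 3122 without control 11 hpf replicate 1 and 5284 with every library, and no gene called in both settings changed direction. Scaling by library totals in place of TMM raised the median log2 fold change by 0.134 and the share of rises among calls from 61.5% to 74.5%, so a list median just below 0 can change sign with the scaling. The replicates were not ordered alike in the 2 directions. At 8 hpf replicate 1 was above replicate 2 in 63.1% of the genes that rose, in 24% of those that fell and in 47.6% of those not called. At 11 hpf these shares were 71.2%, 40.1% and 49.8%. The part of this difference between replicates in the results was not tested.

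The labelled stages were checked against marker genes. The surface keratin krt4 was at 4530 and 4910 CPM, then 6870 and 5760 CPM, and was not called (adjusted p = 0.077). Other edgeR settings called it higher: library totals (adjusted p = 0.014), only the 4 libraries (0.031), only the 8 controls (0.042) and a filter of 1 count (1.2e-04). The neural plate factors SOX3, SOX2 and sox19a were above 150 CPM in all 4 libraries and did not pass the test, with log2 fold changes of -0.06, 0.01 and -0.16. The mesoderm factor tbxta, the Brachyury gene of notochord and tail, fell from 215 and 291 to 139 and 144 CPM (-0.84, not called without replicate 2 of control 8 hpf, adjusted p = 0.052). So did tbx16, which drives cells out of the tail progenitor pool (-1.04, adjusted p = 8.1e-05). MYOD1, a muscle determination factor, rose from 14.1 and 6.8 to 46.2 and 33 CPM (1.91, adjusted p = 1.3e-04). MYOG, a later muscle factor, had 0 counts in both 8 hpf libraries and 77 counts over the 2 libraries of 11 hpf. It was called higher, but not when the edgeR fit held a replicate block (adjusted p = 0.055). The call of MYOG was also lost without replicate 1 of control 11 hpf and without either 8 hpf library. The germ cell genes NANOS3 and DND1 were below 7 CPM in all 4 libraries and were not called (-0.17 and 0.33). Of the other stage markers, vent, ripply1 and mespba were not called (0.14, 0.46 and 1.39). With library totals ripply1 was called higher (0.59), as it was with the replicate block (0.45). The genes mxtx2 and sebox matched no symbol and were not used here.

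**Figure D2:**
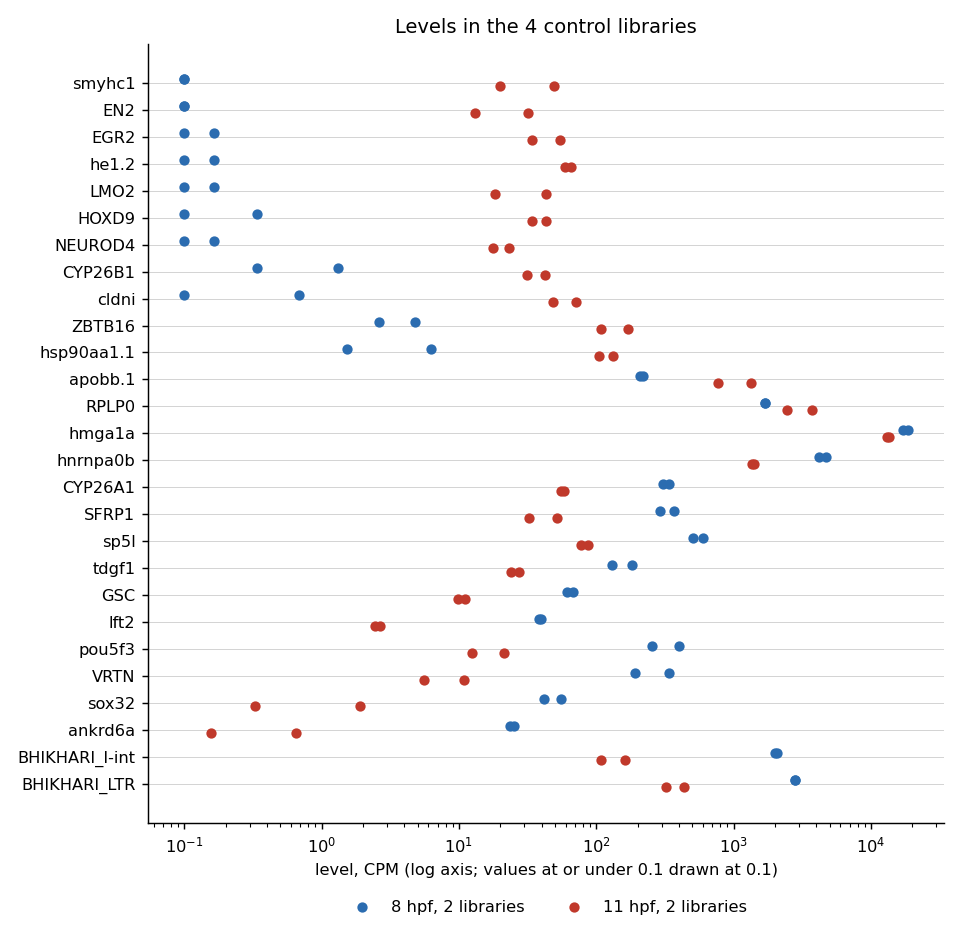
Levels in CPM on a log axis in the 2 control libraries of 8 hpf (blue) and the 2 of 11 hpf (red) for 25 named genes and 2 repeat families, with values at or under 0.1 drawn at 0.1. For pou5f3 the times stand further apart than the replicates, at 255 and 400 CPM and then 12.4 and 21.3 CPM. For RPLP0, at 1680 and 1690 and then 3750 and 2450 CPM, the 11 hpf replicates differ by more than the lower of them differs from 8 hpf. The genes and families shown were chosen among those called, so their separation by time is no independent evidence.

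Pluripotency factors of the blastula were among the genes that lost most. Of 22 tested, 11 fell and 3 rose, with a median of -0.70 against 0.08 over all genes. pou5f3, the zebrafish Pou5 factor that opens chromatin at genome activation, was at 255 and 400 CPM at 8 hpf and at 12.4 and 21.3 CPM at 11 hpf, and its log2 fold change was -4.28 (SE 0.5, adjusted p = 2.4e-04). nanog, its partner, went from 12.4 and 18.2 to 1.96 and 3.15 CPM (-2.57). Both groups of libraries stood far apart, while SOX2, SOX3 and sox19a, the SoxB1 partners that go on to mark the neural plate, did not pass the test. klf2b, a Kruppel-like factor, fell by 3.10 on the log2 scale and foxh1, a cofactor of Nodal-activated Smads, fell by 2.32 (adjusted p = 1.0e-04 and 7.2e-06). ZBTB16, a zinc finger transcription factor, was the largest rise of the list, from 2.62 and 4.76 to 169 and 108 CPM (5.22, SE 0.53). Only 1 of the list's rises was called without replicate 2 of control 8 hpf.

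Among egg and germ plasm genes, 4 of 21 fell and 1 rose (19.0% and 4.76%, median -0.75), against 12.1% and 19.2% over all genes. DDX4 (vasa), an RNA helicase of germ cells, fell from 36.5 and 43.4 to 8 and 9.93 CPM (-2.15, SE 0.3). The other calls depended on single libraries: CCNA1, pabpn1l and CELF1 lost theirs without replicate 2 of control 8 hpf (adjusted p = 0.067, 0.069 and 0.38), and 1 fall was left without it or without replicate 2 of control 11 hpf, and 2 without replicate 1 of control 8 hpf.

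Nodal signals induce mesoderm and endoderm at the margin of the blastula. Their pathway fell broadly, with 13 of 23 tested genes lower and 3 higher (median -0.78). Of the ligands, ndr2 (cyclops) was at 16.9 and 24.8 CPM, then at 2.45 and 3.63 CPM (-2.77, SE 0.38, adjusted p = 6.8e-05). The antagonist lft2 fell from 38.3 and 39.4 to 2.45 and 2.68 CPM (-3.91, SE 0.6), and tdgf1 (one-eyed pinhead), the coreceptor, from 130 and 183 to 27.4 and 24.1 CPM (-2.60, SE 0.2, adjusted p = 2.3e-07). GSC, the organiser homeobox gene, went from 61.4 and 67.7 to 9.79 and 11 CPM (-2.63, SE 0.27). The 8 hpf values of these 4 genes were all above those of 11 hpf. Values of the 2 times also did not overlap in 64.7% of all genes tested. A related Nodal gene of the left-right axis, spaw, had almost no reads at either time. dand5, a Nodal antagonist of the left-right organiser, was among the 3 rises, from 0 and 0.68 to 3.26 and 3.63 CPM (3.29), but was not called without replicate 1 of control 8 hpf (adjusted p = 0.052). A single rise was left without replicate 1 of control 11 hpf or without replicate 2 of control 8 hpf.

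Endoderm genes moved in both directions. sox32 (casanova), the Sox factor that commits cells to endoderm, was at 41.8 and 55.8 CPM and then at 0.326 and 1.89 CPM, one of the largest falls of all (-5.42, SE 0.55, adjusted p = 1.6e-05). Its target SOX17 fell from 28.5 and 34.5 to 0.816 and 5.05 CPM (-3.41), foxa3 by 1.83 and FOXA2 by 1.06 on the log2 scale. In all, 8 of 17 endoderm genes fell and 5 rose (median -0.47), the rises being 1 without control 11 hpf replicate 1 and 3 without replicate 2 of control 8 hpf.

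BMP signals set ventral fate, against antagonists from the organiser. Of 34 genes of the axis, 9 fell and 6 rose (26.5% and 17.6%, median -0.21), against 12.1% falls and 19.2% rises over all genes. The organiser antagonist chrd went from 427 and 381 to 152 and 180 CPM (-1.28, adjusted p = 4.7e-04) and the organiser BMP admp from 37.8 and 65.3 to 7.83 and 11.5 CPM (-2.41). vox, a ventral repressor of organiser genes, fell by 0.94 and foxi1, a factor of ventral ectoderm, by 2.19 on the log2 scale. Among feedback inhibitors, 1 of 2 genes of each name rose: SMAD6 (ENSDARG00000031763) from 8.51 and 6.8 to 34.6 and 27.7 CPM (2.02, adjusted p = 2.0e-05) and BAMBI (ENSDARG00000099677) from 3.77 and 3.4 to 27.1 and 17.3 CPM (2.62). The other BAMBI gene (ENSDARG00000055381) stood at 119 and 203, then 94 and 101 CPM and was not called (-0.72, adjusted p = 0.075), but was called lower by DESeq2 (adjusted p = 0.029). The ligands gave no single direction, with BMP4 not called (-0.18) and 1 of 2 BMP2 genes (ENSDARG00000013409) up from 0.164 and 0.17 to 9.96 and 7.88 CPM (5.58). The other BMP2 gene (ENSDARG00000041430) fell from 34.1 and 47.1 to 29.7 and 21.6 CPM (-0.66, adjusted p = 0.049), a call lost without replicate 2 of control 8 hpf (adjusted p = 0.36) or replicate 2 of control 11 hpf (0.29). The falls numbered 5 without control 11 hpf replicate 1 and 4 without replicate 2 of control 8 hpf, and 5 with library totals.

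Of 35 Wnt pathway genes, 13 fell and 8 rose (37.1% and 22.9%, median -0.36). The share of rises was near the 19.2% over all genes, where falls were 12.1%. sp5l, an Sp1-related target of Wnt8 at the margin, was at 509 and 600 CPM and then at 77.8 and 86.9 CPM (-2.75, SE 0.17, adjusted p = 2.9e-08). The secreted antagonists SFRP1 (ENSDARG00000035521) and frzb fell (-2.96 and -2.54), as did the ligand wnt11f2, which steers convergence movements (-1.17). The ligands that rose are known from the neural tube: WNT10B from 0.819 and 0.17 to 8.65 and 9.93 CPM (4.16), WNT4 from 0.982 and 0.68 to 11.9 and 6.46 CPM (3.43), and WNT1 from 1.15 and 0 to 7.34 and 12.6 CPM (4.05). All 3 stood near the detection limit at 8 hpf.

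FGF signals act through ERK in mesoderm, tailbud and the midbrain-hindbrain boundary. Of 26 genes, 11 rose and 5 fell (42.3% and 19.2%, median 0.36), against 19.2% and 12.1% over all genes. FGFR3 rose from 17.4 and 7.14 to 50.4 and 58.5 CPM (2.15, adjusted p = 8.4e-05), FGFR2 from 44.7 and 28.4 to 98.6 and 88.8 CPM (1.36), and the phosphatase DUSP2 from 0.982 and 0.68 to 15.5 and 18 CPM (4.3). SPRY4, a feedback inhibitor, rose by a log2 fold change of 0.60. Among those that fell were the ligand fgf24 (-2.28), the ERK target ETV4 (-0.70) and the ERK phosphatase DUSP6, a feedback regulator (-0.47), while the main ligand gene listed under FGF8 (ENSDARG00000003399) was not called at 105 and 70.6, then 90.9 and 96.5 CPM.

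Retinoic acid enzymes moved in both directions. Of 17 genes, 7 fell and 5 rose (41.2% and 29.4%, median 0.13), against 12.1% and 19.2% over all genes. CYP26A1, the breakdown enzyme of the gastrula margin and presumptive neural plate, went from 308 and 337 to 55.5 and 58 CPM (-2.50, SE 0.24, adjusted p = 7.1e-06). The other 2 breakdown enzymes, known from hindbrain rhombomeres, went up: CYP26B1 from 1.31 and 0.34 to 42.1 and 31.4 CPM (5.43, SE 0.43) and CYP26C1 from 9.17 and 1.02 to 108 and 97.9 CPM (4.32, SE 0.55). In each case all 4 libraries fell into separate ranges by time, as they did for 64.7% of all genes tested. RDH10 (ENSDARG00000058730), which makes the retinal precursor, fell by 2.36 (SE 0.17, adjusted p = 1.3e-07). CRABP2 (ENSDARG00000073978), a carrier of retinoic acid in the cell, rose from 14.2 and 7.48 to 160 and 133 CPM (3.74, SE 0.25), while the other CRABP2 gene (ENSDARG00000030449) fell from 713 and 946 to 85 and 171 CPM (-2.70).

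**Figure D3:**
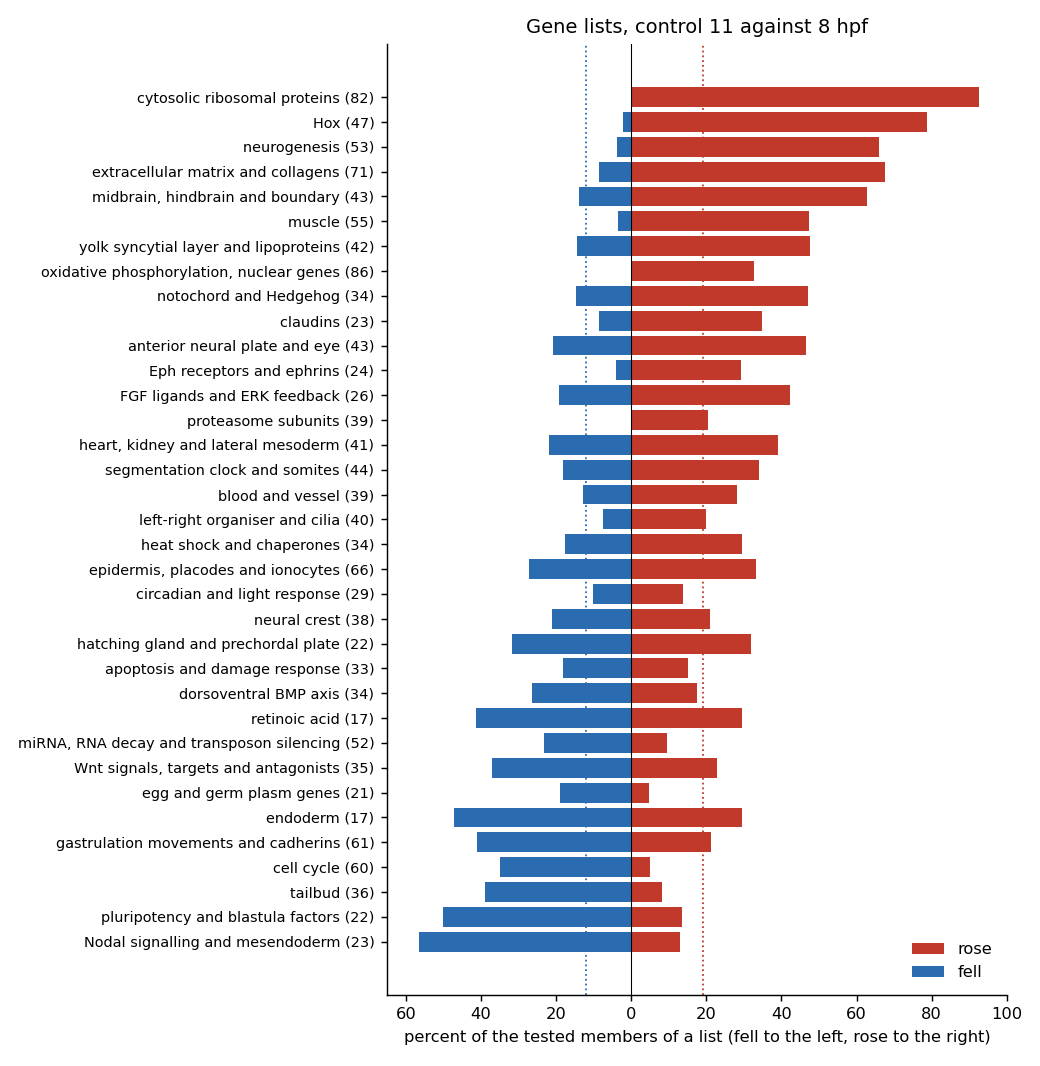
Share of the tested members of each gene list that rose (red, to the right) or fell (blue, to the left) between 8 and 11 hpf in control embryos, in percent, with the number of tested members in parentheses. Dotted lines mark the shares over all genes, 19.2% for rises and 12.1% for falls; ribosomal proteins, Hox and neurogenesis genes stand at the top and Nodal genes at the bottom.

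The notochord is the axial rod of the embryo and a source of Hedgehog signal. Of 34 genes of notochord and Hedgehog signalling, 16 rose and 5 fell (47.1% and 14.7%, median 1.00), against 19.2% and 12.1% over all genes. noto, the homeobox gene that keeps axial cells notochordal, fell from 49 and 72.3 to 22.4 and 24.3 CPM (-1.38, adjusted p = 8.4e-04). Cartilage-type collagens of the sheath rose, with col9a1b going from 0.327 and 0 to 20.2 and 13.9 CPM (6.51, SE 0.44, adjusted p = 5.6e-08) and COL2A1 (ENSDARG00000011407) from 7.53 and 2.21 to 74.1 and 64.8 CPM (3.82). The matricellular gene CCN2, with 0 counts at 8 hpf and 120 at 11 hpf, was at least 38.5-fold higher. Floor plate genes that answer Hedgehog came on from no reads: the guidance cue NTN1 (ENSDARG00000022531) was at least 56.7-fold higher and the homeobox gene nkx2.2b at least 41.3-fold higher. These bounds use 3 counts over the 2 libraries in place of 0 and cover counting error only. The falls numbered 2 without replicate 2 of control 8 hpf.

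The hatching gland arises from the anterior axial mesoderm. Its gene he1.2, a hatching enzyme that digests the egg envelope, had 1 count in the 8 hpf libraries together and stood at 65.4 and 59.1 CPM at 11 hpf (9.23, SE 0.38, adjusted p = 3.8e-10, the smallest in any list). Its relative he1.1 went from 3.11 and 0.17 to 123 and 106 CPM (6.09, SE 0.41), and ctslb, a cathepsin of the gland, from 2.46 and 1.36 to 25.6 and 22.1 CPM (3.62). The prechordal genes GSC, frzb and foxa3 fell. Over the list, 7 of 22 rose and 7 fell (31.8% each way, median -0.17), against 19.2% and 12.1% over all genes.

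Somites form by a clock of her genes in the presomitic mesoderm, and boundaries follow. The oscillators her1 and her7 did not rise: her1 fell from 52.7 and 56.6 to 34.6 and 36.6 CPM (-0.62, adjusted p = 0.025) and her7 was not called (-0.29). The call of her1 was lost with library totals (adjusted p = 0.075) and without replicate 1 or 2 of control 11 hpf (0.13 and 0.068) or replicate 2 of control 8 hpf (0.12). Notch-responsive genes that are also neural rose, with her15.1 going from 8.02 and 8.5 to 50.6 and 55 CPM (2.67, SE 0.19, adjusted p = 7.6e-08). Genes of boundary molecules that rose were EFNB2 (ENSDARG00000020164), an ephrin, from 66.6 and 49.1 to 207 and 220 CPM (1.88, SE 0.14), the receptor EPHA4 (ENSDARG00000054454) from 66.3 and 58.3 to 162 and 153 CPM (1.34, SE 0.12), and fibronectin FN1 (ENSDARG00000006526) from 94.3 and 76.7 to 281 and 251 CPM (1.64, SE 0.15). The more abundant FN1 gene (ENSDARG00000019815) fell from 440 and 393 to 311 and 334 CPM (-0.37, adjusted p = 0.014), a call lost with library totals (0.11) and without replicate 1 of control 11 hpf (0.12) or of control 8 hpf (0.091). MEOX1, a homeobox gene of formed somites, rose by 2.18. In total 15 of 44 rose and 8 fell (34.1% and 18.2%, median 0.22), against 19.2% and 12.1% over all genes. The falls were 3 with library totals. Fewer falls were also called without replicate 1 of control 11 hpf or replicate 2 of control 8 hpf.

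Of 36 tailbud genes, 14 fell and 3 rose (38.9% and 8.33%, median -0.45), against 12.1% and 19.2% over all genes. Beside sp5l and CYP26A1, the falls held tbx16 and WNT8A (ENSDARG00000078507, -1.22). The second WNT8A gene (ENSDARG00000052910, -1.28) lost its call without replicate 2 of control 8 hpf, where it was at -0.52 (adjusted p = 0.48), without replicate 1 of control 11 hpf (0.25) and with library totals (0.067). cdx4, a caudal gene of the posterior body, stood at 531 and 580, then 452 and 465 CPM and was not called (-0.28), and msgn1, a presomitic factor, was not called either (-0.31, adjusted p = 0.058). With repeat families left out of the edgeR fit, both cdx4 and msgn1 were called lower (-0.30 and -0.33, adjusted p = 0.046 and 0.04). The falls numbered 9 without control 11 hpf replicate 1 and 8 without replicate 2 of control 8 hpf.

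Of 55 muscle genes tested, 26 rose and 2 fell (median 1.49). smyhc1, the myosin heavy chain of slow fibres that arise first next to the notochord, had no read at 8 hpf and stood at 49.5 and 20 CPM at 11 hpf, at least 138-fold higher (adjusted p = 0.0021). The skeletal actin ACTA1 (ENSDARG00000036371) went from 3.93 and 7.48 to 80.5 and 59.9 CPM (3.62, SE 0.27), actc1b from 0.327 and 0.17 to 19.7 and 12.6 CPM (5.90) and tropomyosin tpma from 0.982 and 0.17 to 21.2 and 14.3 CPM (4.88, SE 0.43). hsp90aa1.1, the chaperone that folds muscle myosin in zebrafish, rose from 6.22 and 1.53 to 133 and 104 CPM (4.92, SE 0.39). EYA1, a transcription cofactor of muscle and placode precursors, rose by 3.50 (SE 0.23, adjusted p = 4.6e-08). The fast-fibre light chain gene MYL1 (ENSDARG00000014196) had 4 counts at 11 hpf. One of the falls, TNNT3 (ENSDARG00000030270), rested on 7 counts at 8 hpf, and the falls numbered 1 without either 11 hpf library or without replicate 2 of control 8 hpf.

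The brain's regional genes came on in large steps. In the anterior neural plate and eye list 20 of 43 genes rose and 9 fell (median 1.42). emx3, a dorsal forebrain homeobox gene, went from 1.15 and 0 to 24.8 and 24.9 CPM (5.37, SE 0.52). Of 2 genes under PAX6, the eye and forebrain factor, ENSDARG00000103379 rose from 1.8 and 0.51 to 57.4 and 56.6 CPM (5.59, SE 0.54). The other PAX6 gene (ENSDARG00000045936) rose less (0.71). Its call was lost without replicate 2 of control 8 hpf, where its change was 0.44, and without replicate 2 of control 11 hpf (0.64). The early head genes otx2a and OTX2 fell, otx2a from 118 and 139 to 33.6 and 45.4 CPM (-1.70) and OTX2 from 225 and 192 to 127 and 145 CPM (-0.62).

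Midbrain and hindbrain genes gave 27 rises and 6 falls in 43 (62.8% and 14.0%, median 2.21), against 19.2% and 12.1% over all genes. EGR2 (krox20), of odd-numbered rhombomeres, went from a single count to 54.2 and 34.2 CPM (8.73, SE 0.59). The boundary gene EN2 (ENSDARG00000038868) had no read at 8 hpf and stood at 32 and 13.2 CPM at 11 hpf, at least 89.7-fold higher. The pair of Gbx genes that mark the anterior hindbrain moved in opposite directions, GBX2 from 0.982 and 1.87 to 42.1 and 40 CPM (4.83, SE 0.34) and GBX1 from 58.3 and 70.9 to 9.96 and 13.6 CPM (-2.45, SE 0.28).

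Of 53 neurogenesis genes, 35 rose and 2 fell (median 2.47). The proneural neurog1 was present at 8 hpf, at 15.6 and 5.1 CPM, and rose to 43.6 and 38.5 CPM (1.98, adjusted p = 8.9e-04). Factors of later steps started from next to nothing: NEUROD4 from 0.164 and 0 to 23 and 17.7 CPM (7.61, SE 0.47) and POU3F2, of neural progenitors, from 0.327 and 0.17 to 35.7 and 28.7 CPM (6.90, SE 0.46). ELAVL3 (HuC), an RNA-binding protein of new neurons, rose from 18.7 and 9.86 to 42.6 and 53 CPM (1.74). GFAP, a filament of radial glia, had 183 counts at 11 hpf and none at 8 hpf, at least 58.6-fold higher.

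Neural crest, the migratory cell type of the plate border, had 8 of 38 genes up and 8 down (21.1% each way, median 0.37). The share of rises was near the 19.2% over all genes, where falls were 12.1%. SOX10 went from 0.327 and 0.51 to 36.7 and 28.7 CPM (6.22, SE 0.8) and SOX9 (ENSDARG00000043923) from 10.8 and 3.74 to 151 and 115 CPM (4.18, SE 0.42), both of them crest factors. FOXD3, an early crest gene, rose by 1.08. TFAP2A, shared by crest and epidermis, was not called (-0.42). It was called lower when the filter was dropped to 1 count and without replicate 1 of control 8 hpf (-0.69). The gene crestin, a marker of crest on the move, had at most 0.631 CPM in any of the 4 libraries. Both genes listed under ZIC2, of the plate border, fell (-1.36 and -0.85).

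Hox genes, which give regional identity along the axis, were the most one-sided of the regulatory lists. Of 47 tested, 37 rose and 1 fell, with a median of 2.58. At 8 hpf 23 of them reached 1 CPM and at 11 hpf 38. In paralog groups 1 to 4, 12 of 13 rose (median 2.21), in groups 5 to 8, 10 of 12 (median 2.11), and in groups 9 to 13, 15 of 22 (median 3.40, which depends on genes with 0 counts). hoxb1b, a gene that is early in the gastrula hindbrain, was the fall, from 203 and 175 to 120 and 119 CPM (-0.66, adjusted p = 0.0037). Posterior genes that were nearly absent came on, with HOXD9 going from 0 and 0.34 to 42.9 and 34.1 CPM (7.68, SE 0.64) and hoxa9b from 0.655 and 0 to 32.3 and 31.5 CPM (6.50, SE 0.4). Posterior genes already present rose less: HOXB9 from 29.8 and 25.2 to 87.8 and 91 CPM (1.70, SE 0.16). At the far end of the clusters, in group 13, HOXC13 and hoxa13a had no read at either time. Of the same group, hoxa13b rose from 0 and 0.17 to 2.77 and 2.84 CPM (4.76, SE 0.94). The gene hoxd13a had reads only in replicate 1 of control 11 hpf (0.653 CPM) and was not called.

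**Figure D4:**
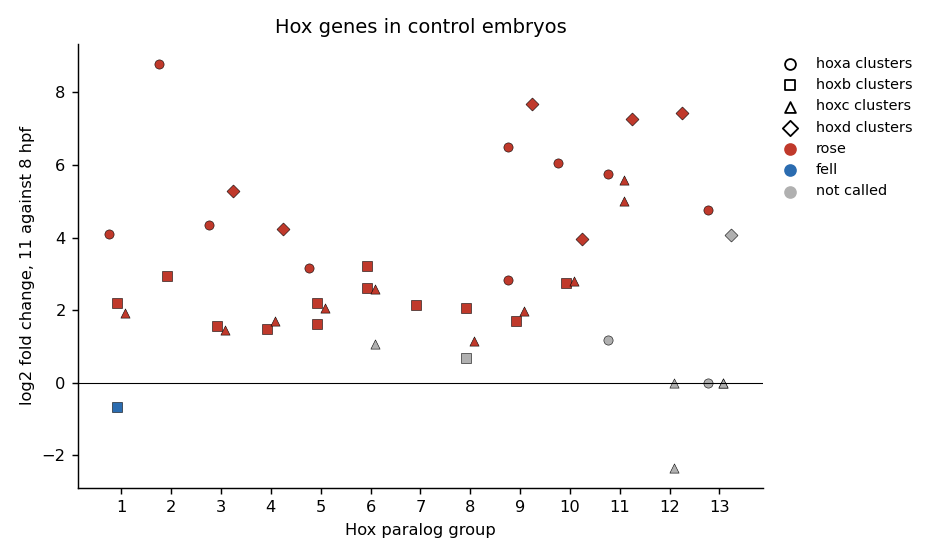
Log2 fold change of 11 against 8 hpf (vertical axis) for the 47 Hox genes tested, by paralog group from 1 (anterior) to 13 (posterior) on the horizontal axis; symbols give the cluster and colours the call. The 37 red symbols lie above 0, the blue square is hoxb1b at -0.66, and grey symbols are genes not called.

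Epidermal genes went both ways, with 22 of 66 up and 18 down (33.3% and 27.3%, median 0.12), against 19.2% and 12.1% over all genes. TP63, the factor of basal epidermis, rose from 25.4 and 33.5 to 83.7 and 85.3 CPM (1.52, adjusted p = 1.2e-05), and GRHL2, a factor of epithelial junctions, from 7.86 and 6.46 to 31.2 and 34.1 CPM (2.18). GCM2, of ion-transporting cells, came on from 0 to 42 counts. grhl3, of the outer enveloping layer, fell from 60.8 and 77.7 to 29.2 and 30.1 CPM (-1.22, SE 0.19). The keratin krt18a.1 was not called (-0.10). The falls depended on single libraries, being 6 without replicate 1 of control 11 hpf, 8 without control 8 hpf replicate 2 and 11 with library totals. Claudins, the strand proteins of tight junctions, gave 8 rises and 2 falls in 23 (34.8% and 8.7%, median -0.08). The rises were led by cldni, from 0 and 0.68 to 71.6 and 48.1 CPM (7.4, SE 0.96). Without replicate 1 of control 8 hpf the claudin rises were 5, and the falls were 1 or 0 when each of the 4 libraries was left out.

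Several regulators of blood and vessels rose. etsrp, the Ets factor that starts vessels, went from 1.15 and 0.17 to 35.3 and 23.2 CPM (5.41, SE 0.6), and FLI1, another Ets factor, from 0.491 and 0 to 17.6 and 10.7 CPM (5.71). TAL1, the blood and vessel bHLH factor, went from 0.164 and 0.17 to 47.8 and 13.6 CPM (7.35, SE 1.39), with its 11 hpf libraries far apart. Its partner LMO2 went from 0.164 and 0 to 42.8 and 18.3 CPM (8.2) and just missed the call without replicate 2 of control 8 hpf (adjusted p = 0.051). The embryonic globin hbbe3 had no read. Of 39 genes 11 rose and 5 fell (28.2% and 12.8%, median 0.83). The share of falls was near the 12.1% over all genes, where rises were 19.2%. Fewer rises of the list were called without either 8 hpf library or without replicate 1 of control 11 hpf. The falls were 2 without control 11 hpf replicate 1 and 1 without replicate 2 of control 11 hpf or replicate 2 of control 8 hpf.

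Heart, kidney and lateral plate genes gave 16 rises and 9 falls in 41 (median 1.26). HAND2, of heart and lateral plate, rose from 2.13 and 2.38 to 41.3 and 25.5 CPM (3.88, SE 0.45). The apelin receptor gene aplnrb, which cardiac precursors need to reach the midline, fell from 82 and 125 to 39.8 and 43.4 CPM (-1.31), and its early ligand apela from 157 and 224 to 68.4 and 71.9 CPM (-1.44, SE 0.2). MYL7, a heart muscle light chain, had 0 counts at 11 hpf. The rises were 10 without control 8 hpf replicate 2 and the falls 5 without replicate 1 of control 8 hpf. In the list of left-right organiser and cilia, 8 of 40 rose and 3 fell (20% and 7.5%, median 0.52), a share of rises near the 19.2% over all genes. Its rises included foxj1b, a master factor of motile cilia, from 2.29 and 2.72 to 14.4 and 11.8 CPM (2.38, SE 0.37). The rises of the list numbered 4 or 5 when each of the 4 libraries was left out.

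Genes of gastrulation movements fell while matrix genes rose. Of 61 genes of cell polarity, migration and cadherins, 25 fell and 13 rose (41.0% and 21.3%, median -0.35). The share of rises was near the 19.2% over all genes, where falls were 12.1%. VANGL2, a core planar polarity protein, dropped from 551 and 645 to 329 and 345 CPM (-0.83, SE 0.12, adjusted p = 7.7e-05), GPC4 (knypek), a glypican of convergence, from 426 and 416 to 192 and 212 CPM (-1.06), and the receptor FZD7 (ENSDARG00000027589) from 494 and 523 to 207 and 254 CPM (-1.14). The main cadherins did not pass, with cdh1 at -0.04 and CDH2 at 0.26. CDH2 was called higher with library totals (0.40) and with the replicate block (0.26). The rises included CDH11 (2.1), a cadherin of mesenchyme, and quo (3.69), a protocadherin. The falls were 15 without replicate 1 of control 11 hpf, and the rises 7 without it or without replicate 2 of control 8 hpf.

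Of 71 matrix and collagen genes, 48 rose and 6 fell (median 2.26), a larger share of rises than the 19.2% over all genes. COL11A1, a fibrillar collagen of cartilage, went from 6.88 and 5.27 to 63.8 and 42.9 CPM (3.13, SE 0.21, adjusted p = 6.0e-08) and hapln1a, a link protein of hyaluronan, from 0.982 and 0.34 to 54.7 and 36.9 CPM (6.06, SE 0.43). Basement membrane genes rose too, LAMA5 from 9.99 and 3.06 to 94.8 and 65.9 CPM (3.61) and AGRN, a proteoglycan, from 0.491 and 0.34 to 41.8 and 18.4 CPM (6.1). The gene lamb2l, a laminin chain, was at 0 and then at 23.5 and 13.6 CPM, at least 73.7-fold higher. The few falls were 2 without control 11 hpf replicate 1 and 3 without replicate 1 of control 8 hpf, and 3 with library totals.

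The yolk syncytial layer, a nucleated sheet that feeds the embryo from the yolk, makes lipoproteins. Of 42 such genes 20 rose and 6 fell (47.6% and 14.3%, median 1.25), against 19.2% and 12.1% over all genes. serpina1l, a protease inhibitor, was at 7.04 and 4.08 CPM and then at 140 and 69.5 CPM (4.22, SE 0.53). apobb.1, the scaffold of lipoprotein particles, went from 220 and 209 to 1330 and 764 CPM (2.29, SE 0.46, adjusted p = 0.0059). In both genes replicate 1 was well above replicate 2 at 11 hpf. apobb.1 was not called without replicate 2 of control 8 hpf (adjusted p = 0.06). HNF4A, a regulator of such genes in liver, fell from 122 and 82.6 to 20.6 and 13.4 CPM (-2.59, SE 0.41). The glucose transporter SLC2A2, outside this list, rose from 0 to 269 counts, at least 86.2-fold higher. The rises were 9 without replicate 2 of control 8 hpf, 12 without control 11 hpf replicate 1 and 13 without replicate 1 of control 8 hpf, and the falls 3 without control 8 hpf replicate 1 and 2 without replicate 2 of control 11 hpf.

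Ribosomal protein genes rose by small and even steps. Of 82 cytosolic genes 76 rose and none fell, with a median of 0.60. Their summed share of counts was 4.54% and 4.58% at 8 hpf and 7.78% and 7.42% at 11 hpf. RPS2 went from 1840 and 1800 to 3340 and 2760 CPM (0.75, SE 0.13). RPLP0, of the ribosomal stalk, showed the largest difference in CPM of any rise, clone and accession names aside. It went from 1680 and 1690 to 3750 and 2450 CPM (0.88). Its change was 0.55 without replicate 1 of control 11 hpf, and it was not called there or without either 8 hpf library. Elongation factor eef2b and the poly(A)-binding protein pabpc1a each rose by 0.71. In the nuclear genes of oxidative phosphorylation 28 of 86 rose and none fell (median 0.34), NDUFV1, a subunit of complex I, from 28 and 25.8 to 62.2 and 61.8 CPM (1.2). Of 39 proteasome subunits 8 rose and none fell (median 0.19), or 20.5% rises, near the 19.2% over all genes. The phosphorylation rises were 16 without replicate 1 of control 11 hpf or replicate 2 of control 8 hpf, 18 without control 8 hpf replicate 1 and 41 with library totals. The proteasome rises ran from 1 to 4 without a library and were 16 with library totals.

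Abundant genes of RNA binding and chromatin made up the largest falls in CPM among genes without clone or accession names. hnrnpa0b, an hnRNP protein of messenger RNA packaging, went from 4170 and 4690 to 1370 and 1420 CPM (-1.67, SE 0.12, adjusted p = 8.0e-08), and ANP32E, a chaperone of histone H2A.Z, from 2620 and 3580 to 924 and 1120 CPM (-1.60). HMGB2, a DNA-bending protein, dropped from 3820 and 4620 to 2290 and 2610 CPM (-0.79). hmga1a, also a chromatin protein, had the largest difference of these, from 17200 and 18700 to 13100 and 13600 CPM, at a modest fold (-0.43, SE 0.09). Both genes listed under HNRNPAB fell (-0.56 and -0.79), and khdrbs1a, an RNA-binding protein, fell by 0.51 but was not called without replicate 2 of control 8 hpf (adjusted p = 0.06).

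Cell cycle genes fell slightly, 21 of 60 with 3 rises (35.0% and 5.0%, median -0.32), against 12.1% and 19.2% over all genes. The rises were replication helicase subunits, MCM2 from 115 and 91.1 to 250 and 271 CPM (1.34, SE 0.13), MCM4 (0.94) and MCM5 (0.42), the last not called without either 8 hpf library or without replicate 2 of control 11 hpf (adjusted p = 0.055, 0.074 and 0.084). CDT1, which loads that helicase, fell from 121 and 148 to 68.1 and 74.6 CPM (-0.91), the mitotic kinesin KIF23 by 0.72 and the cyclin CCNA2 by 0.72 on the log2 scale. PCNA was not called (-0.09). The falls were 13 without replicate 1 of control 11 hpf, 10 without control 8 hpf replicate 2 and 14 with library totals.

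Among stress genes, the small chaperone HSPB1 went down from 2170 and 2550 to 1380 and 1440 CPM (-0.74). The inducible hsp70.3 was not called (-1.50) unless the filter was dropped to 1 count. Over all genes tested 19.2% rose and 12.1% fell. Heat shock and chaperone genes gave 10 rises and 6 falls in 34 (29.4% and 17.6%, median 0.03). Without replicate 1 of control 11 hpf these falls were 3. Apoptosis and damage response genes gave 5 rises and 6 falls in 33 (median -0.12), with mdm2, a ubiquitin ligase, not called (0.35). SESN1 rose by 1.29 and sesn3 fell from 544 and 432 to 178 and 115 CPM (-1.73), both sestrins. Each direction was 3 in 2 of the leave-outs: the rises without replicate 1 of control 11 hpf or replicate 2 of control 8 hpf, the falls without replicate 1 of control 8 hpf or replicate 2 of control 11 hpf.

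Of 29 circadian and light response genes 4 rose and 3 fell (13.8% and 10.3%, median -0.25). Both shares were below the 19.2% and 12.1% over all genes. BHLHE40, a clock repressor, went from 0.655 and 1.02 to 11.1 and 12.8 CPM (3.81, SE 0.48), and the kinase CSNK1D from 238 and 218 to 107 and 109 CPM (-1.08, SE 0.11). PER2 was not called (-0.37). The rises were 2 without replicate 1 of control 11 hpf or either 8 hpf library. Eph receptors and ephrins gave 7 rises and 1 fall in 24 (29.2% and 4.17%, median 0.34), the fall being EFNA1 (ENSDARG00000018787). The other EFNA1 gene (ENSDARG00000030326) rose (0.78). More falls of the list were called without replicate 2 of control 11 hpf. epha7, a receptor of hindbrain and trunk, rose from 9.01 and 7.48 to 37.7 and 37.5 CPM (2.19, SE 0.21).

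In the list of miRNA function, RNA decay and transposon silencing, 12 of 52 fell and 5 rose (23.1% and 9.62%, median -0.18). These shares were 12.1% and 19.2% over all genes. TNRC6A, which links miRNAs to decay, dropped from 476 and 494 to 188 and 214 CPM (-1.27, SE 0.13). The methylcytosine oxidases rose, tet3 from 2.29 and 2.38 to 48.1 and 34.5 CPM (4.13, SE 0.32) and TET2 from 0.982 and 0.17 to 17 and 15 CPM (4.73, SE 0.49). The falls were 4 without replicate 2 of control 8 hpf, 5 without replicate 1 of control 11 hpf, 7 without control 11 hpf replicate 2 and 5 with library totals, and the rises 2 without replicate 1 of control 8 hpf and 9 with library totals.

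Outside the lists, the largest falls by fold among genes of at least 10 CPM held ankrd6a, the zebrafish gene of the Wnt regulator Diversin, from 23.7 and 25 to 0.653 and 0.158 CPM (-5.85, SE 0.64), and VRTN, a DNA-binding gene named for vertebra number in pigs, from 193 and 340 to 5.55 and 10.9 CPM (-5.01, SE 0.53). The purine phosphorylase gene pnp4a fell from 48.5 and 32.1 to 0.979 and 0.631 CPM (-5.61), and the cytochrome P450 CYP27C1 from 149 and 136 to 10.9 and 11 CPM (-3.69, SE 0.28). Among the genes that passed the filter, complete silence was rarer than onset, but the filter itself favours onset. It used all 8 groups, most of them later than 8 hpf. A gene with few counts at 11 hpf could pass through its counts at later times. A gene with few counts at 8 hpf and none later had no such route. The share of the filter in this difference was not tested. There were 330 genes with 0 counts in both 8 hpf libraries and over 3 counts at 11 hpf, 209 of them called, against 33 the other way, 14 of them called. Clone and accession names aside, the ion channel gene trpa1a had the most counts of those 33, with 28, at least 9.71-fold lower at 11 hpf. The cystine transporter slc7a11, with 17 counts, lost its call without either 11 hpf library or without replicate 2 of control 8 hpf.

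Repeat families fell more often than they rose. Of 862 tested, 88 fell and 20 rose (10.2% and 2.32%, 12.5% together, median -0.17). BHIKHARI_LTR, the long terminal repeat of the retrovirus, was at 2810 and 2820 CPM and then at 437 and 323 CPM (-2.89, SE 0.14, adjusted p = 2.2e-09), and its internal part BHIKHARI_I-int at 2000 and 2070, then 108 and 161 CPM (-3.91, SE 0.39). In both, the 8 hpf libraries lay far above those of 11 hpf. The families BHIKHARI-3-I_DR and BHIKHARI-3-LTR_DR fell as well (-2.66 and -1.81). Both parts of ERV1-N6 fell, the internal part from 1100 and 1340 to 69.5 and 119 CPM (-3.69). ERV1_DR-I fell by 3.87 and the DNA transposon TDR21 by 2.97. The family ERV1-N3-I_DR was the most abundant, at 42900 and 19800 and then 12800 and 14700 CPM, and missed the threshold (-1.19, SE 0.41, adjusted p = 0.055). It was called lower by DESeq2 (0.015), with only the 4 libraries (0.042), with only the 8 controls (0.049) and with the replicate block (0.029). Chosen after their values were seen, the rises ERV1-N8-I_DR, from 205 and 125 to 1660 and 692 CPM (2.83), and ERV1-N2-I_DR, from 694 and 549 to 1260 and 1510 CPM (1.16), were the most abundant of the 20. Both lost their call without replicate 2 of control 8 hpf (adjusted p = 0.073 and 0.054), where 3 families rose. With library totals the families gave 44 falls and 39 rises. Calls ran from 44 to 120 over the leave-outs, the fewest being without replicate 2 of control 8 hpf. Reads shared by copies of related families may be split between them in ways a count table does not show.

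Fewer genes were called in the next intervals. In the same fit 463 genes were called from 11 to 14 hpf (2.74% of those tested, 2.05% higher and 0.693% lower) and 2024 from 14 to 18 hpf (12.0%, 8.05% higher and 3.93% lower), against 5284 from 8 to 11 hpf. The first 2 intervals share the control 11 hpf libraries, so their difference was tested by its own contrast, which called 650 genes (3.85%): 526 with a more positive change in the first interval (3.11%), 519 of them rises from 8 to 11 hpf, and 124 with a more negative change (0.734%), 119 of them falls. Side by side, 204 of the 3248 rises were again higher at 14 hpf, 9 were lower and 3035 were not called, and of the 2036 falls 74 were again lower, 9 higher and 1953 not called. Muscle genes went on, 18 of the 55 rising from 11 to 14 hpf, among them ACTA1 (ENSDARG00000036371, 1.45 after 3.62) and tpma (1.79 after 4.88), as did 17 of the 71 matrix genes. EGR2 did not pass the test from 11 to 14 hpf (0.39 after 8.73), and 4 of 47 Hox genes rose. GSC and SOX17 fell again (-2.85 and -4.90). Calls from 11 to 14 hpf ranged from 98 to 774 when single libraries were left out, and those of the difference from 199 to 844.

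**Figure D5:**
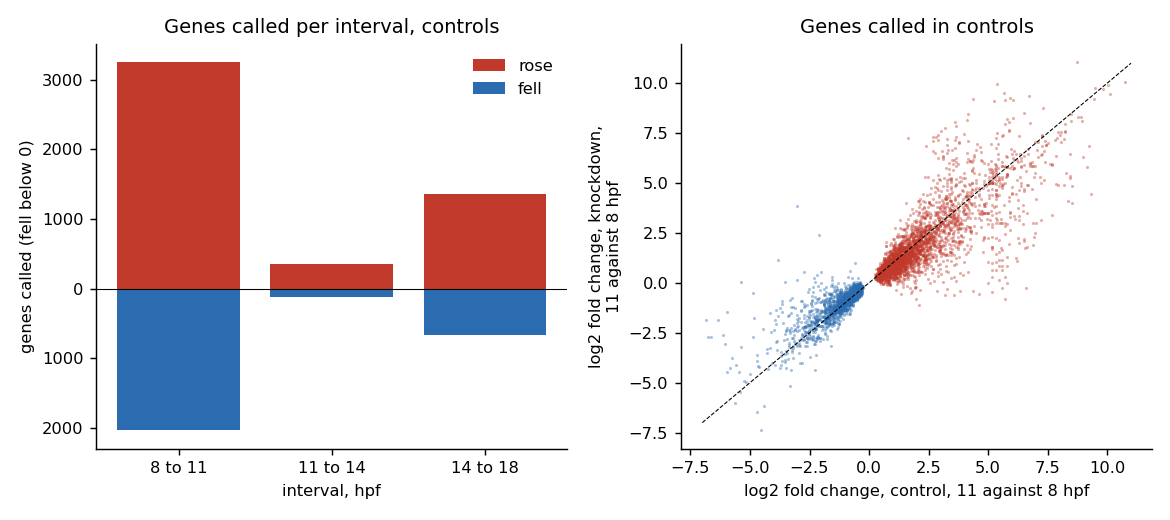
Left, genes called per interval in control embryos, rises above and falls below 0: 3248 and 2036 from 8 to 11 hpf, 346 and 117 from 11 to 14 hpf, 1360 and 664 from 14 to 18 hpf. Right, log2 fold changes from 8 to 11 hpf of the genes called in controls, control on the horizontal and knockdown on the vertical axis, with the line of equal change dashed; rises are red and falls blue.

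The same interval was measured in embryos with Bik-1 LNA, in libraries not shared with the controls. Same-numbered control and knockdown libraries nevertheless deviated together, with a correlation of 0.5 at 11 hpf and 0.32 at 8 hpf, so the 2 sets of calls are not shown to be independent. In the knockdown 3042 genes rose and 1829 fell, which is 18.0% and 10.8% of those tested, 28.8% together. The 2 sets shared 2352 rises, which is 72.4% of the control and 77.3% of the knockdown rises, and 1399 falls, 68.7% and 76.5%. The genes that rose in controls had a median log2 fold change of 1.49 in controls and 1.26 in the knockdown, and the genes that fell -0.83 and -0.72, values that favour the set they were chosen in. The log2 fold change of BHIKHARI_LTR was -2.89 in controls and -2.71 in the knockdown. The edgeR interaction test called 0 genes (0.0%) as different between control and knockdown. In this test 517 of 16894 genes had an unadjusted p under 0.05. That is less than the share of 0.05 that evenly spread p-values would give. DESeq2 called 0 as well, and 38 genes were called when the filter was dropped to 1 count. Clone and accession names aside, the lowest interaction p belonged to FEZF2, a forebrain zinc finger gene. Its mean was 51 and 33.7 CPM in controls and 15.4 and 30.7 CPM in the knockdown (difference of log2 fold changes 1.58, unadjusted p = 3.9e-05, adjusted p = 0.58). GID8 (ENSDARG00000037589), of a ubiquitin ligase complex, came next, with a log2 fold change of -1.77 in controls and -0.78 in the knockdown (adjusted p = 0.58). FEZF2 and ppp1r3c2b were the 2 genes called in opposite directions, and both lost the control call without replicate 1 of control 11 hpf or replicate 1 of control 8 hpf.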

How the data were processed

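The authors deposited raw counts, whole numbers of reads per Ensembl gene and per repeat family, for 16 libraries of polyadenylated RNA made with a directional kit, per the labels' protocols. STAR and GRCz11 are named in the submitters' processing notes; versions, the counting program and its strand setting are not given in sources used here, so overlapping, antisense and near-identical genes may share reads. The combined table held 32520 genes and 1036 families and matched the single-library files in every value. A symbol was given to 29201 genes; 6136 genes share one of 1719 symbols and are named with their identifier.

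Counts were fitted with edgeR 4.0.16 (R 4.3.3, limma 3.58.1) as deposited: TMM scaling, filterByExpr on 8 groups, a robust quasi-likelihood fit with 1 mean per group over all 16 libraries and 8 residual degrees of freedom. The filter kept 17756 features, 16894 genes and 862 families, over which p-values were adjusted (Benjamini-Hochberg, called under 0.05). DESeq2 1.42.0 was an alternative. A fold against 0 counts is a lower bound from 3 counts over the group. Labels and totals show no batch beyond the replicate number.

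The members, the 35 gene lists and the naming rule were chosen with earlier results of these data known, so no list is independent evidence and none was given a test. The rule named the 15 largest rises and falls of at least 10 CPM, the 8 largest differences in CPM each way and genes with 0 counts at a time. It also named the 4 called members of lowest p in each list with marker genes, and the 5 lowest interaction p-values. Of the families it named the largest and those whose names begin with BHIKHARI_, which leaves out BHIKHARI-3. Clone and accession names were left out of its rankings by fold, CPM, 0 counts and interaction. Other genes in the text were chosen from the lists after their values were seen. Some genes that the rule names are not reported here. Of 1128 list symbols, 70 matched none. The alternatives were another scaling, other filters, DESeq2, fewer libraries, a replicate block, a fold threshold and leaving out each library.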

Additional observations from a re-analysis of the deposited data

How the results depend on the processing

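From 8 to 11 hpf 5284 genes were called. DESeq2 called 4881, library totals 5346, genes alone 5332, no filter beyond 1 count 5587, 1 CPM in 2 libraries 5215, only the 4 libraries of these times 3730, only the 8 controls 5506 and the replicate block 5787; no called gene changed direction under any of these. The deviations of same-numbered control libraries of 8 and 11 hpf had a correlation of 0.07. This value cannot decide whether the libraries were paired, as the labels do not describe the replicates. Between control and knockdown the correlation was 0.32 at 8, 0.5 at 11, 0.16 at 14 and 0.07 at 18 hpf. With the block the interaction still called 0. A test against a log2 fold change of 1 called 1134 genes (921 higher, 213 lower) and 12 families (2 higher, 10 lower), and 1060 in the knockdown, 56 from 11 to 14 hpf, 417 from 14 to 18 hpf and 194 for the interval difference. With only the 4 libraries 2155 genes were higher and 11 families. Library totals gave 39 families higher and 44 lower, and no filter 34 higher. No filter also gave 38 for the interaction, 1209 from 11 to 14 hpf and 1371 for the interval difference; only the 8 controls gave 714 from 11 to 14 hpf. The causes were not tested. Leaving out 1 library gave 2716 to 5704 genes (1740 to 3493 higher, 976 to 2217 lower), 44 to 120 families (3 to 29 higher, 41 to 93 lower), 0 to 0 for the interaction, 2791 to 4903 in the knockdown, 98 to 774 from 11 to 14 hpf, 636 to 2477 from 14 to 18 hpf and 199 to 844 for the interval difference. Of the 5284 calls, 49.9% were shared without control 8 hpf replicate 2 and 56.8% without replicate 1 of control 11 hpf. Of 279 features named by the rule or in the text, 177 kept direction and side of the threshold in every setting, 90 lost a call in some setting, 12 gained one and none reversed. Counting error limits genes of few counts most.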

Other observations

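Gene groups formed by symbol after the values had been seen give a further description, without a test. Of 26 hnRNP genes 15 fell and 3 rose (median log2 fold change -0.38), and of 18 SR splicing factor genes 10 fell and none rose (median -0.55), against 12.1% falls over all genes. Of 17 aminoacyl-tRNA synthetase genes, which load amino acids onto tRNA, 9 rose and none fell (median 0.47). Mitochondrial ribosomal proteins gave 22 rises and 2 falls in 75 (29.3% and 2.67%, median 0.21). Rises over all genes were 19.2%.

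Counts for transcription factor families follow, also without a test. Of 9 Iroquois homeobox genes 8 rose, among them IRX5 from 7.04 and 4.25 to 30 and 22.2 CPM (2.2), while irx7, an early member of the zebrafish neural plate, fell from 188 and 177 to 94.8 and 109 CPM (-0.84). Of 13 Pou genes 9 rose and pou5f3 alone fell. Klf genes gave 3 rises and 4 falls in 19 (15.8% and 21.1%, median -0.13) and Sox genes 11 and 3 in 26 (42.3% and 11.5%, median 0.83). Over all genes 19.2% rose and 12.1% fell, so the Klf rises were below that share and the Sox falls near it. Protocadherin genes gave 21 rises and 4 falls in 32, but clustered members share exons, so their reads may be split between them and their number is uncertain.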
